A study of Mus musculus with 10 samples.

Results

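A set of 10 genes of the NF-kappaB system were followed in mouse hearts. They were chosen by gene name, as 5 subunits of the transcription factor (Nfkb1, Nfkb2, Rel, Rela and Relb) and 5 inhibitors of it (Nfkbia, Nfkbib, Nfkbie, Nfkbiz and Tnfaip3), and each matched 1 of the 54532 genes of the deposited count table. Hearts of C57BL/6 mice aged 8 weeks came from 5 animals 24 h after lipopolysaccharide (LPS), the outer-membrane component of Gram-negative bacteria, and from 5 control animals injected with saline. This time is that of the labels and the counts, other deposited values name 3 h, and which is right is not settled. The labels name no transgene or deletion in either group, and they state neither the LPS dose nor the sex. The labels number the libraries of each group without saying how animals were housed or processed, so p-values measure the spread between these libraries.

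NF-kappaB proteins act as pairs of subunits that share a DNA-binding Rel homology region. In resting cells IkappaB proteins hold the pairs in the cytoplasm. Signals from Toll-like and cytokine receptors activate a kinase that marks IkappaB for destruction, and the freed pairs enter the nucleus and switch on genes of inflammation. Several of the inhibitors are themselves among those genes, which gives the pathway a negative feedback loop at the mRNA level. Several of the subunits are among those genes too. In the heart, Toll-like receptor 4, the LPS receptor, is found on cardiac muscle cells as well as on vessel wall and immune cells.

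The total count was between 14607969 and 17012372 reads per library. One saline library, replicate 5, stood apart. On the leading axis of a principal component analysis it had a coordinate of -0.56, with the LPS libraries at 43.7 to 55.0 and the remaining saline libraries at -67.0 to -55.1, so the members are given with and without it. The tissue matched its label by Myh6, the main myosin heavy chain of adult mouse heart. Myh6 was at 16560.3 ± 1249 CPM in LPS hearts and 16204 ± 2087 CPM in saline hearts (SD, n = 5 each). CPM are read counts scaled by library size times the TMM factor, which adjusts for differences in RNA composition. Because these are whole hearts, fewer cells of a type and less RNA per cell cannot be told apart.

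All 5 inhibitors and 4 of the 5 subunits rose in LPS hearts by edgeR's quasi-likelihood test (adjusted p below 0.05), and 0 members fell. Over all 13864 tested genes, 39.9% passed the test, 18.9% upward and 21.0% downward. All 9 members that rose did so by at least 1 on the log2 scale, as did 8.99% of tested genes. The median log2 fold change was 2.39 for the inhibitors and 1.64 for the subunits, against -0.02 for all tested genes. Without saline replicate 5, all 10 members rose, against 21.0% of 14123 tested genes (44.0% passed in either direction and 22.9% fell), and the medians were 3.91 for the inhibitors and 2.01 for the subunits. In 9 members every LPS library lay above every saline library, a pattern found upward in 14.3% of tested genes. The exception was Relb.

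**Figure D1:**
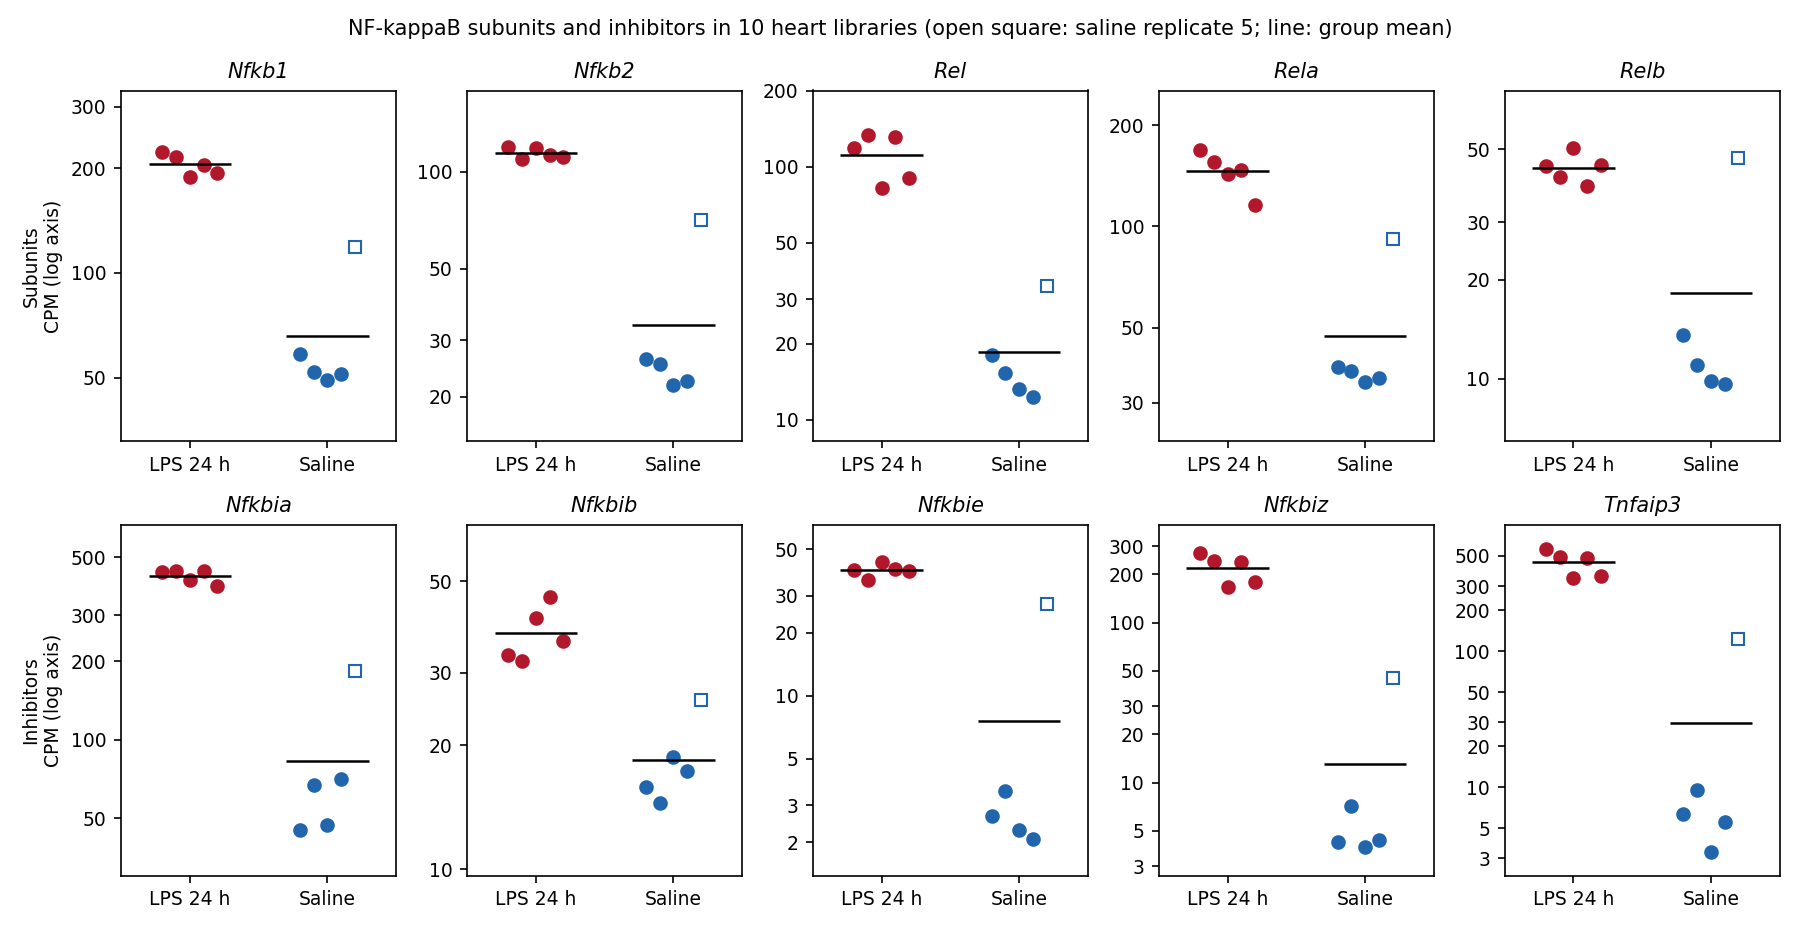
Level of each gene in CPM (log axis, scaled separately in each panel) in the 5 LPS and the 5 saline libraries, with the group mean as a line and saline replicate 5 as an open square. The LPS libraries stand above the saline libraries in 9 panels, and in the Relb panel saline replicate 5 (47.0 CPM) lies among the LPS libraries (38.6 to 50.4 CPM).

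Among the subunits, Rela (ENSMUSG00000024927, chr19:5637483-5648130, plus strand) encodes p65, the strongest activator of the family and the usual partner of the Nfkb1 product in the classical pathway. It was at 169, 155, 143, 147 and 116 CPM in LPS replicates 1 to 5, and at 38.3, 37.3, 34.5, 35.4 and 91.5 CPM in saline replicates 1 to 5. The lowest LPS library stood above saline replicate 5, and saline replicates 1 to 4 were within a few CPM of each other. Rela rose by 1.63 ± 0.29 on the log2 scale, 3.08-fold (SE, edgeR adjusted p = 0.00137), and by 2.01 ± 0.11 without saline replicate 5.

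Rel (ENSMUSG00000020275, chr11:23736847-23770970, minus strand) encodes c-Rel, best known from lymphoid and myeloid cells. Its values were 119, 133, 82.3, 131 and 90.1 CPM in LPS libraries and 18.1, 15.3, 13.2, 12.3 and 33.9 CPM in saline libraries. The groups were far apart, and LPS replicates 3 and 5 were the lower ones within their group. The log2 fold change of 2.58 ± 0.30 (5.99-fold, edgeR adjusted p = 0.000107) was the highest of the 5 subunits, and it was 2.92 ± 0.17 without saline replicate 5.

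Relb (ENSMUSG00000002983, chr7:19606217-19629438, minus strand) encodes the subunit of the non-canonical pathway, which pairs mainly with the Nfkb2 product. It was measured at 44.3, 41.1, 50.4, 38.6 and 44.8 CPM in LPS libraries and at 13.6, 11.0, 9.87, 9.67 and 47.0 CPM in saline libraries. Saline replicates 1 to 4 were below all LPS libraries, while saline replicate 5 was above 4 of the 5. With all libraries Relb did not pass the test (log2 fold change 1.27 ± 0.47, edgeR adjusted p = 0.0616). Without saline replicate 5 it rose by 1.99 ± 0.13 (adjusted p = 4.38e-09), close to the value of Rela, and without any other single library it did not pass (adjusted p up to 0.123).

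Nfkb1 (ENSMUSG00000028163, chr3:135584655-135691547, minus strand) and Nfkb2 (ENSMUSG00000025225, chr19:46304737-46312090, plus strand) encode the precursors p105 and p100, which are cut to the DNA-binding subunits p50 and p52 and which, uncut, hold other subunits back as IkappaB proteins do. Nfkb1 was at 223, 216, 188, 204 and 194 CPM in LPS hearts and at 58.3, 51.9, 49.2, 51.3 and 119 CPM in saline hearts. The groups did not overlap, and Nfkb1 rose by 1.64 ± 0.24 (log2, 3.11-fold, edgeR adjusted p = 0.000273), or 1.96 ± 0.10 without saline replicate 5. Nfkb2 was at 119, 109, 119, 113 and 111 CPM in LPS hearts and at 26.3, 25.3, 21.8, 22.3 and 71.0 CPM in saline hearts. Its LPS libraries varied least of all members, with a coefficient of variation of 3.99%, against 6.06% to 21.2% in the other 9. Nfkb2 rose by 1.78 ± 0.34 (log2, 3.43-fold, edgeR adjusted p = 0.00265), and by 2.26 ± 0.10 without saline replicate 5.

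Promoter sequences show where the recognition motif of NF-kappaB stands in the genes that encode it. RefSeq windows of 300 bases (GRCm38.p6), 250 before the start site and 50 from it on, were searched on both strands. The patterns were the kappaB consensus and a form called strict here, GGANNTTCC, and overlapping matches were counted where they fell. The strict form is a separate pattern and not a part of the consensus, so a strict match need not be a consensus match. Windows of 7 members were searched, and those of Nfkb1, Nfkbiz and Relb were not used here. Of 32851 windows of all genes, 8.46% hold the consensus and 4.26% the strict form. Of 13125 windows of tested genes, 10.6% hold the consensus and 4.62% the strict form. Among the 10 windows of the members, 7 hold the consensus and 5 the strict form. Nfkb2 has 3 of the 10, all with the consensus, and 1 match is shared between overlapping windows of Nfkb2. The first windows of Nfkb2 and Rel are printed because they hold matches next to each other, and that of Rela because it holds none. Capitals mark the matches, in the direction of transcription.
Nfkb2, chr19:46304487-46304786, plus strand: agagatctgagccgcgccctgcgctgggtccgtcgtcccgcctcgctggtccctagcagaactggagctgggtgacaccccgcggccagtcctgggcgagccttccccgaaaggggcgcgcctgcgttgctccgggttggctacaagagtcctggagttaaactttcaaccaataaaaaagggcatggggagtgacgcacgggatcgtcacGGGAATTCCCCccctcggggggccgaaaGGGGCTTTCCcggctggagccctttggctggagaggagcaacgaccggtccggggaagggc
Rel, chr11:23770920-23771219, minus strand: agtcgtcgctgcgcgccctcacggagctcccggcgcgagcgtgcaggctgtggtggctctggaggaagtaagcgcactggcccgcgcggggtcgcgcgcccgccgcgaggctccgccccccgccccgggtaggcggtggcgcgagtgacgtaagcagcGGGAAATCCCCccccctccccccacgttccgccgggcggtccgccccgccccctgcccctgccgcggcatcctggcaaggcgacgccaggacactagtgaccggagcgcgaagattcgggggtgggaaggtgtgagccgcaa
Rela, chr19:5637291-5637590, plus strand: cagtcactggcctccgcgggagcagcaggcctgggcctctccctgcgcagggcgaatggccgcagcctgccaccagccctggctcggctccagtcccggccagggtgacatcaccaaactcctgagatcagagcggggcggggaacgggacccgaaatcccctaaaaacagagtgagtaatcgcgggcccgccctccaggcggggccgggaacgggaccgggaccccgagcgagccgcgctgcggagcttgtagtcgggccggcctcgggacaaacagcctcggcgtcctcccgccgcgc

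In Nfkb2 the matches stand at -39 to -29, where 2 overlap, and at -11 to -2, with the start site at 0. In Rel 2 overlapping matches stand at -92 to -82. Rela holds no match, which says only that these letters are not in its 300 bases.

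The inhibitors differ in how they act. Nfkbia (ENSMUSG00000021025, chr12:55489410-55492647, minus strand) encodes IkappaB-alpha, the main cytoplasmic inhibitor and a classical feedback target of NF-kappaB. Its levels were 441, 445, 409.7, 443 and 387 CPM in LPS libraries and 45.2, 67.3, 47.0, 70.6 and 184 CPM in saline libraries. The LPS libraries were close together, and all stood above saline replicate 5 by a wide gap. Nfkbia rose by 2.36 ± 0.40 (log2, 5.14-fold, edgeR adjusted p = 0.0014), and by 2.89 ± 0.14 without saline replicate 5.

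Nfkbib (ENSMUSG00000030595, chr7:28758251-28767512, minus strand) encodes IkappaB-beta, a cytoplasmic inhibitor known for a weaker feedback response than IkappaB-alpha. It was at 33.2, 32.0, 40.8, 45.7 and 35.8 CPM in LPS libraries and at 15.8, 14.5, 18.7, 17.3 and 25.7 CPM in saline libraries. The groups did not overlap, but the step was small, at 1.03 ± 0.15 on the log2 scale (2.04-fold, edgeR adjusted p = 0.000115), the lowest of the 10 members. Without saline replicate 5 it was 1.18 ± 0.13. Nfkbib shares 778 bases with Sirt2 on the other strand, which had 4240 reads over the 5 LPS libraries and 5432 reads over the 5 saline libraries, and without a stated strand setting reads of that stretch cannot be told apart.

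Nfkbie (ENSMUSG00000023947, chr17:45555703-45563169, plus strand) encodes IkappaB-epsilon, another cytoplasmic inhibitor induced by NF-kappaB. It was at 39.6, 35.6, 43.5, 40.1 and 39.3 CPM in LPS libraries and at 2.66, 3.51, 2.30, 2.08 and 27.4 CPM in saline libraries, with 36 to 63 reads in each of saline replicates 1 to 4. Saline replicate 5 was 10.4 times the mean of the other saline libraries and still below every LPS library. The rise of 2.39 ± 0.77 (log2, 5.25-fold, edgeR adjusted p = 0.0369) became 3.91 ± 0.15 (15.0-fold, adjusted p = 2.09e-11) without saline replicate 5. Without any other single library Nfkbie did not pass, with adjusted p between 0.0559 and 0.0825.

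Nfkbiz (ENSMUSG00000035356, chr16:55811375-55838899, minus strand) is named with the inhibitors but encodes IkappaB-zeta, a nuclear member of the family that is made after stimulation and is known to help switch on a second set of genes, among them Il6 and Lcn2. It was at 273, 243, 168, 238 and 178 CPM in LPS libraries and at 4.23, 7.13, 3.93, 4.40 and 45.3 CPM in saline libraries. All LPS libraries were at least 3 times saline replicate 5. Nfkbiz rose by 4.08 ± 0.83 (log2, 17.0-fold, edgeR adjusted p = 0.0048), and by 5.48 ± 0.23 (44.7-fold) without saline replicate 5.

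Tnfaip3 (ENSMUSG00000019850, chr10:19000910-19015657, minus strand) encodes A20, a ubiquitin-editing enzyme that stops signalling upstream of the IkappaB kinase. Its values were 565, 491, 343, 485 and 358 CPM in LPS libraries and 6.36, 9.47, 3.37, 5.56 and 123 CPM in saline libraries. Saline replicate 5 was 19.8 times the mean of the other saline libraries, and every LPS library stood above it. The log2 fold change was 3.93 ± 1.13 (15.2-fold, edgeR adjusted p = 0.024) with all libraries and 6.18 ± 0.32 (72.4-fold) without saline replicate 5. Without saline replicate 2 it did not pass (3.72, adjusted p = 0.0558).

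**Figure D2:**
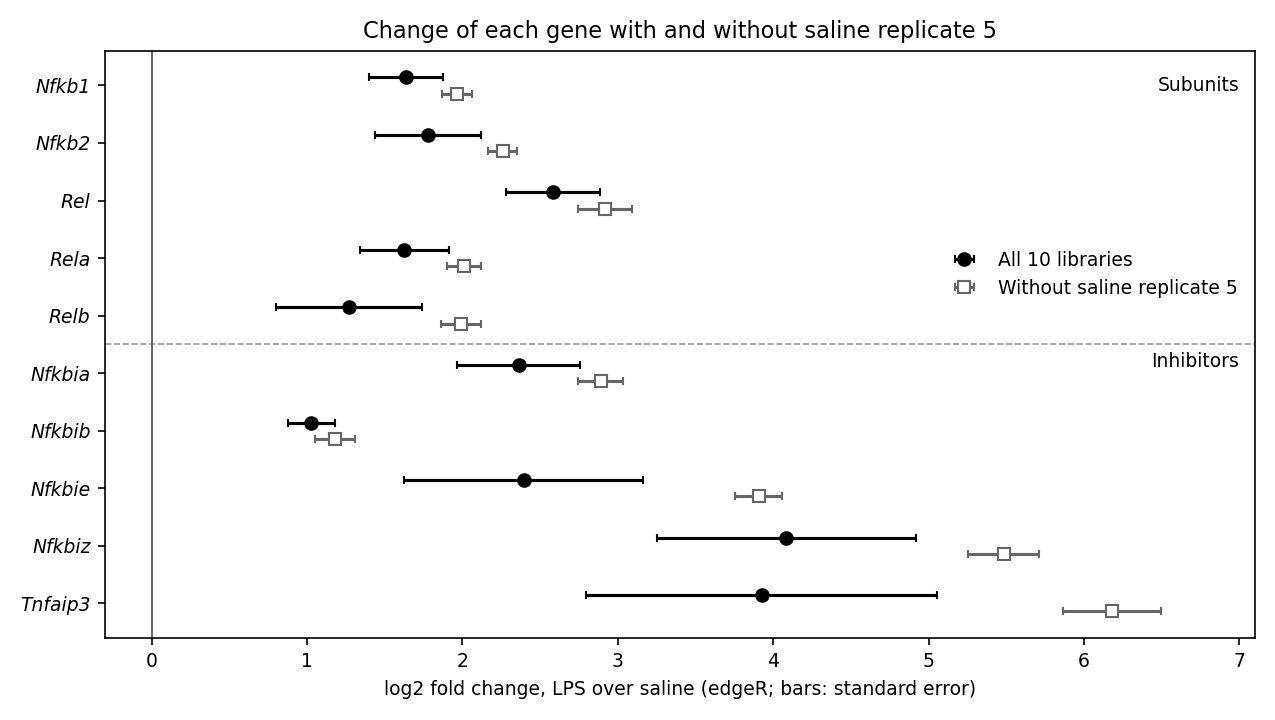
Log2 fold change of LPS over saline for each gene (edgeR, bars give the standard error), with all 10 libraries as filled circles and without saline replicate 5 as open squares. The inhibitors spread from 1.03 to 4.08 with all libraries and the subunits from 1.27 to 2.58, and each value is higher without saline replicate 5.

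Windows of Nfkbia and Tnfaip3 are printed because they hold several matches to the kappaB motifs, and that of Nfkbib because it holds none.
Nfkbia, chr12:55492598-55492897, minus strand: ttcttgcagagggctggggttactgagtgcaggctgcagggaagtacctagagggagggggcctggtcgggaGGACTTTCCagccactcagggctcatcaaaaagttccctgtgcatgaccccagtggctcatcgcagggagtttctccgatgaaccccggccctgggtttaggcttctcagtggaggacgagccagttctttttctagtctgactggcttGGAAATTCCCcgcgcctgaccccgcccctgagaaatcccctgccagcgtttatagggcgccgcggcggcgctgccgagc
Tnfaip3, chr10:19015361-19015660, minus strand: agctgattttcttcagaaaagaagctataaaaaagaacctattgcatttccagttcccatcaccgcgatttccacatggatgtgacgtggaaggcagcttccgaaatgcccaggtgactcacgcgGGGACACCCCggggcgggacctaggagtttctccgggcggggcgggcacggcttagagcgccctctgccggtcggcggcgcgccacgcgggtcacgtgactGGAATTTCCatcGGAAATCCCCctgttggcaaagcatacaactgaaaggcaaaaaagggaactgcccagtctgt
Nfkbib, chr7:28766595-28766894, minus strand: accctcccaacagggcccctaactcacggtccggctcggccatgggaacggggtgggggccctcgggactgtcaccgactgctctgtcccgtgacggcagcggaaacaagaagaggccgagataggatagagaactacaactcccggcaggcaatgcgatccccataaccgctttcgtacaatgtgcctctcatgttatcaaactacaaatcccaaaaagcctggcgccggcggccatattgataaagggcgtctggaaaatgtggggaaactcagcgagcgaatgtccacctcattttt

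In Nfkbia the strict form stands at -178 to -170 and again at -29 to -21, where the consensus overlaps it up to -20. Tnfaip3 holds the consensus at -125 to -116 and at -12 to -3, and the strict form at -24 to -16. A second window of Tnfaip3 holds neither. Nfkbie, not printed, holds the consensus at -106 to -97 and the strict form at -76 to -68. These matches are letters in a sequence, and binding was not measured here.

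Levels of different genes were compared per length, with the FPKM that the authors deposited (reads scaled by gene length and by a factor per library). By the deposited values, that factor is not simply the total count of the library. In LPS hearts Nfkbia led with 283 ± 16.2 FPKM (SD, n = 5), apart from all others. Tnfaip3 (66.6 ± 14.1), Rela (57.7 ± 7.55), Nfkbiz (47.1 ± 9.65) and Nfkb2 (37.3 ± 1.40) followed, each overlapping its neighbour. Below a gap came Nfkbib (18.6 ± 2.74), Nfkb1 (18.2 ± 1.30), Rel (16.0 ± 3.36), Nfkbie (14.0 ± 0.95) and Relb (12.1 ± 1.22), whose neighbours also overlapped.

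The order differed in saline replicates 1 to 4, where Nfkbia (37.5 ± 8.59 FPKM, SD, n = 4) and Rela (14.1 ± 0.66) led and stood apart. Nfkbib (8.03 ± 0.90) and Nfkb2 (7.64 ± 0.69) overlapped each other, and Nfkb1 (4.59 ± 0.34), Relb (2.98 ± 0.48) and Rel (2.07 ± 0.36) came next, each apart from its neighbours. Nfkbiz (1.03 ± 0.31), Nfkbie (0.91 ± 0.22) and Tnfaip3 (0.90 ± 0.37) shared the lowest place. Tnfaip3 was thus rank 2 of the 10 by mean FPKM in LPS hearts, against rank 10 in these saline hearts, and Nfkbiz was rank 4 against rank 8. In saline replicate 5, Tnfaip3 was at 18.0 FPKM and Nfkbiz at 9.56 FPKM.

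The balance between the classes can be read within a library, where scaling plays no part. The classes are those named at the start, with Nfkbiz among the inhibitors and Nfkb1 and Nfkb2 among the subunits. Given what these 3 genes encode, the ratio is not one of inhibiting to activating products. For each read of the 5 subunits there were 2.01, 1.90, 1.72, 1.98 and 1.80 reads of the 5 inhibitors in LPS replicates 1 to 5, and 0.48, 0.72, 0.59, 0.76 and 1.12 in saline replicates 1 to 5. Inhibitor reads outnumbered subunit reads in every LPS library, and among the saline libraries in replicate 5 alone. This crossing holds for reads only, since summed FPKM of the inhibitors exceeded that of the subunits in every library. Per length the ratio was 1.16, 1.71, 1.44, 1.92 and 1.97 in saline replicates 1 to 5, so replicate 5 was close to replicate 4. The mean ratio was 1.88 ± 0.12 in LPS hearts and 0.73 ± 0.24 in saline hearts (SD, n = 5 each), 2.56 times as high in LPS, or 2.95 times without saline replicate 5. Counted per length, as summed FPKM, the ratio was 3.04 ± 0.12 in LPS hearts and 1.64 ± 0.34 in saline hearts, 1.85 times as high in LPS. These ratios are a description, with no test, since the genes were chosen with earlier results known.

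**Figure D3:**
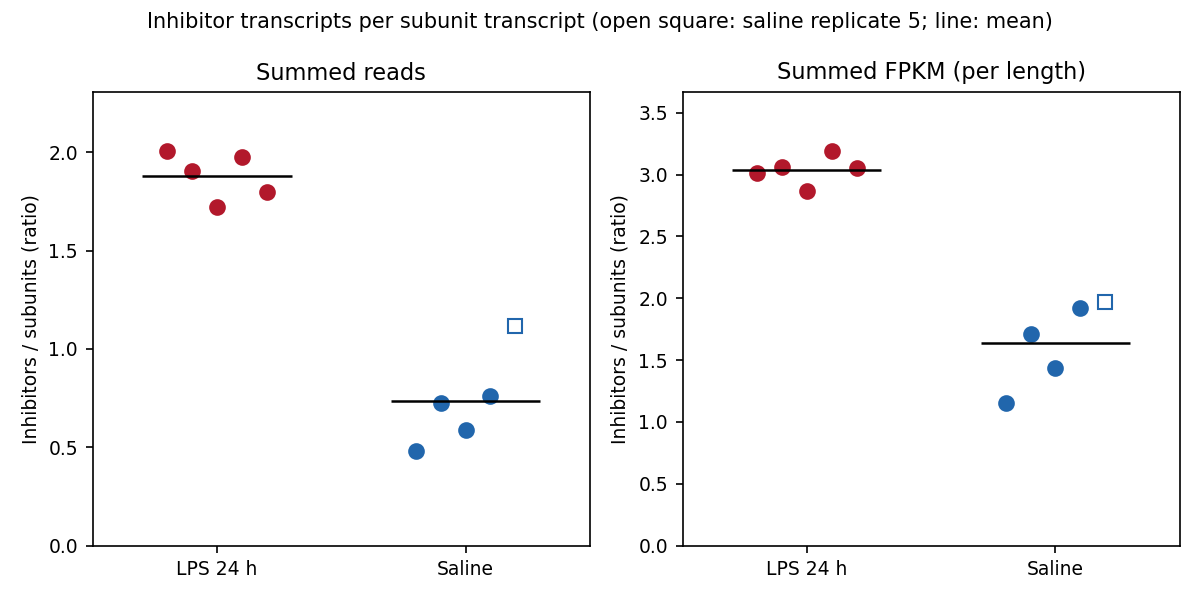
Ratio of inhibitor to subunit transcripts in each library, from summed reads (left) and from summed FPKM (right), with the group mean as a line and saline replicate 5 as an open square. The LPS libraries lie at 1.72 to 2.01 by reads and the saline libraries at 0.48 to 1.12, without overlap, and the same holds per length.

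The make-up of the inhibitor pool differed more than that of the subunit pool. Of the summed inhibitor FPKM, Tnfaip3 took 12.9% to 18.0% in LPS libraries, against 1.17% to 2.50% in saline replicates 1 to 4 and 10.6% in saline replicate 5. Nfkbiz took 9.06% to 12.5% in LPS libraries, against 1.62% to 2.72% and 5.61%. Nfkbib moved the other way, with 3.52% to 5.11% in LPS libraries, against 12.8% to 21.7% in saline replicates 1 to 4 and 7.37% in saline replicate 5, although its own level rose. Nfkbie took 2.79% to 3.88% in LPS libraries, against 1.26% to 2.30% in saline replicates 1 to 4, and was highest in saline replicate 5 (5.59%). Nfkbia remained the main inhibitor transcript throughout, at 63.0% to 69.1% in LPS and 70.9% to 81.0% in saline libraries.

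In the subunit pool Rela took 36.8% to 43.1% in LPS and 41.2% to 46.2% in saline libraries, which overlap. Nfkb2 (24.3% to 29.0% in LPS, 23.9% to 26.4% in saline) also overlapped. Nfkb1 took 12.2% to 13.9% in LPS libraries, against 14.1% to 15.1% in saline replicates 1 to 4 and 12.1% in saline replicate 5. Rel took 8.57% to 13.2% in LPS libraries, against 5.55% to 7.36% in saline libraries, without overlap and with saline replicate 5 the lowest of all. Relb took 7.47% to 10.1% in LPS libraries and 8.82% to 14.8% in saline libraries, with its highest share in saline replicate 5.

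**Figure D4:**
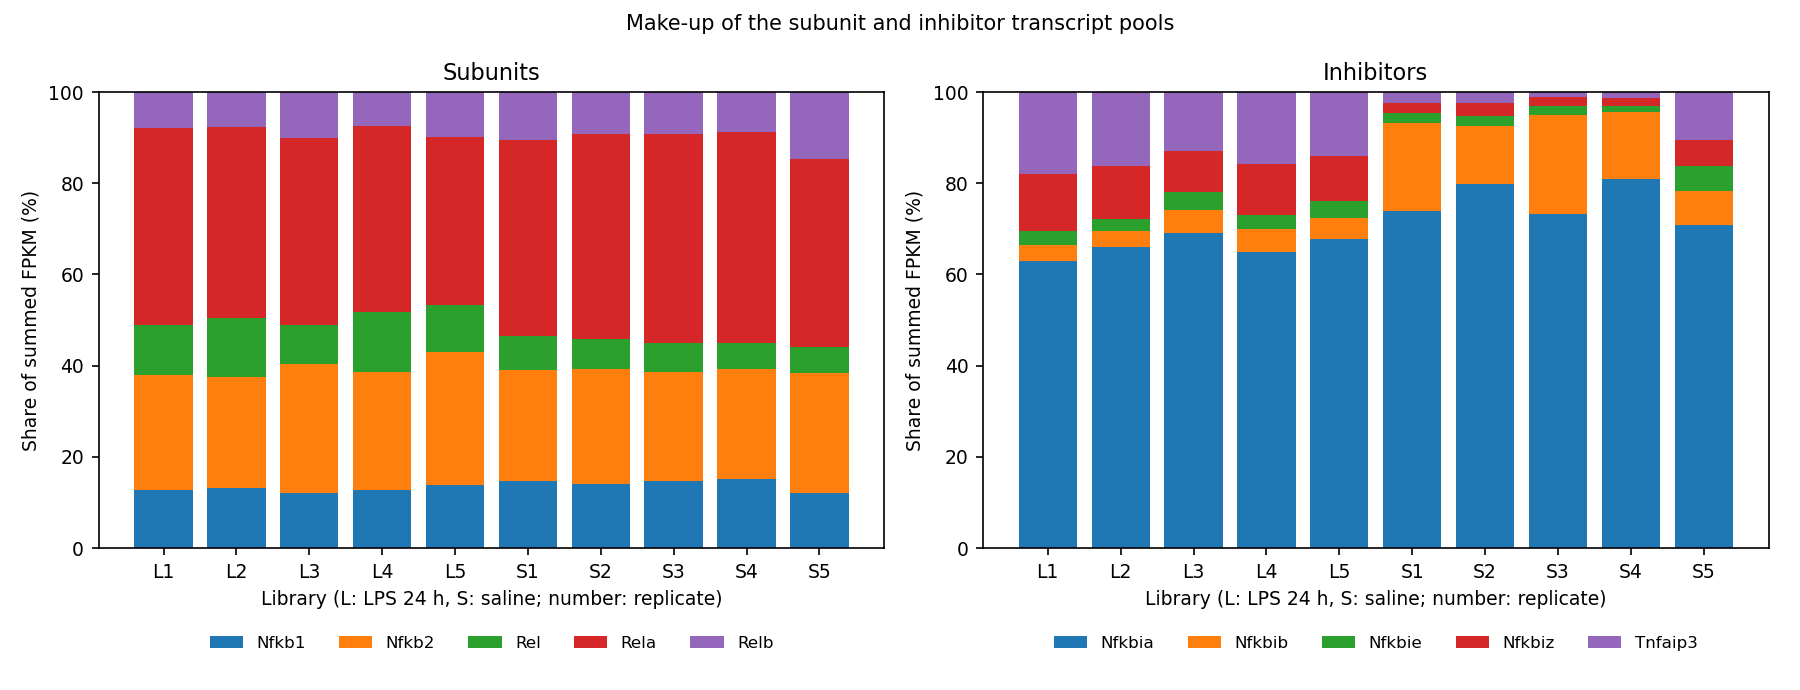
Share of each gene in the summed FPKM of the 5 subunits (left) and of the 5 inhibitors (right), per library, in percent. Tnfaip3 and Nfkbiz widen and Nfkbib narrows in the LPS libraries, while Rela holds 36.8% to 46.2% of the subunit pool in all 10 libraries.

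Saline replicate 5 did not shift all members alike. On the log2 scale of CPM, the distance between the mean of saline replicates 1 to 4 and the mean of the LPS libraries was taken as the whole. Saline replicate 5 lay at 41.2% of that distance for Rel and at 53.8% to 69.8% for Nfkb1, Nfkb2, Rela, Nfkbia, Nfkbib, Nfkbiz and Tnfaip3. It lay at 86.4% for Nfkbie and at 105% for Relb. Within the LPS group, replicates 3 and 5 were the lowest libraries for Rel, Nfkbiz and Tnfaip3, while replicate 3 was the highest for Relb and Nfkbie.

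Cell type markers were read beside these results. For their counts, 18.9% of all tested genes rose and 21.0% fell with all libraries. Without saline replicate 5, 21.0% rose and 22.9% fell. Neutrophil markers summed to 13.0 to 38.9 CPM in LPS libraries, to 1.29 to 4.01 CPM in saline replicates 1 to 4 and to 23.0 CPM in saline replicate 5. Of the 4 of 8 that were tested, 2 rose with all libraries (median log2 fold change 1.84) and 4 without saline replicate 5 (median 3.40). Summed over the 5 libraries of a group, S100a9 had 673 reads in LPS and 212 in saline hearts, Csf3r 563 and 206, S100a8 307 and 75, Retnlg 169 and 62, and Cxcr2 67 and 37. Saline replicate 5 held 9.33 CPM of S100a9 and 6.65 CPM of Csf3r, against 0.37 to 1.17 and 0.34 to 2.03 CPM in saline replicates 1 to 4. With all libraries S100a9 did not pass (edgeR adjusted p = 0.116), while Csf3r did (0.04, up to 0.0882 with 1 library left out). The remaining markers were at or near 0, with 8 reads in LPS and 1 in saline hearts for Ly6g, 5 and 0 for Mpo, and 0 in both for Elane. Endothelial markers fell in 7 of 7, with sums of 492 to 621 CPM in LPS libraries, 1262 to 1462 CPM in saline replicates 1 to 4 and 839.9 CPM in saline replicate 5. Macrophage and monocyte markers summed to 359 to 475 CPM in LPS and 401 to 573 CPM in saline libraries, with 3 rising and 3 falling of 10. Lymphocyte markers summed to 1.52 to 2.47 CPM in LPS libraries, to 3.30 to 4.18 CPM in saline replicates 1 to 4 and to 1.49 CPM in saline replicate 5. Only Cd4 of these was tested, with a log2 fold change of -0.73 (edgeR adjusted p = 0.224), and without saline replicate 5 it fell by 1.01 (adjusted p = 0.0137). Fibroblast sums were 1125 to 1497 CPM in LPS and 1270 to 1574 CPM in saline libraries (0 of 6 rose and 1 fell), and cardiomyocyte markers passed the test in 0 of 8. The part of these cell types in the values of the members was not tested.

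Other genes of the pathway were counted in lists chosen with earlier results of these data known. Of 19 other negative regulators of NF-kappaB, 9 rose and 2 fell in LPS hearts, with a median log2 fold change of 0.30 (all tested genes, 18.9% rising, 21.0% falling and -0.02). Zc3h12a, which encodes the RNA-cutting enzyme Regnase-1, was at 63.8 ± 5.94 CPM in LPS hearts and 7.71 ± 5.15 CPM in saline hearts (SD, n = 5 each; log2 fold change 3.05 ± 0.36 SE, edgeR adjusted p = 0.000136). Tnip1, whose product binds A20, was at 344 ± 45.3 CPM in LPS hearts and 59.9 ± 63.5 CPM in saline hearts (2.52 ± 0.59, adjusted p = 0.00906), and its relative Tnip3 at 41.2 ± 9.90 and 5.89 ± 10.4 CPM in LPS and saline hearts (2.82 ± 0.96, adjusted p = 0.0469). Without saline replicate 5 the values were 3.45 for Tnip1 and 5.03 for Tnip3, and Tnip3 did not pass without any other single library (adjusted p up to 0.0987). Pdlim2, which encodes a nuclear protein that ends the activity of p65, fell, with 0.91 ± 0.52 CPM in LPS hearts and 5.95 ± 2.44 CPM in saline hearts (-2.66 ± 0.42, adjusted p = 0.000283).

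Of 8 genes of the IkappaB kinase and of the ubiquitin ligase that marks IkappaB, 3 rose and 0 fell. Over all tested genes 18.9% rose and 21.0% fell. With total count scaling 1 gene of this list rose and 4 fell. Fbxw11, a substrate-recognition part of that ligase, was at 116 ± 20.1 CPM in LPS hearts and 55.5 ± 5.05 CPM in saline hearts (log2 fold change 1.06 ± 0.12, edgeR adjusted p = 1.07e-05). The kinase genes Ikbkb and Chuk had smaller log2 fold changes of 0.47 ± 0.11 and 0.40 ± 0.10 (adjusted p = 0.00306 and 0.00416), and with total count scaling neither passed (0.20 and 0.13).

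Of 12 genes of the non-canonical arm 9 were tested, and 4 rose and 0 fell (all tested genes, 18.9% rising and 21.0% falling). The list takes in genes whatever their effect on the arm, and the arm's activity was not measured. Cd40, a receptor that feeds this arm, was at 155 ± 33.9 CPM in LPS hearts and 8.87 ± 12.3 CPM in saline hearts (4.13 ± 0.81, edgeR adjusted p = 0.00385, and 5.51 without saline replicate 5). The ubiquitin ligase genes Birc3 (2.59 ± 0.72, adjusted p = 0.0204) and Birc2 (2.18 ± 0.36, adjusted p = 0.00115) rose as well, with values of 3.84 for Birc3 and 2.68 for Birc2 without saline replicate 5. Map3k14, which encodes the kinase NIK at the head of this arm, was at 6.55 CPM in LPS and 6.70 CPM in saline hearts and did not pass (-0.03 ± 0.19, adjusted p = 0.912; named after its value was seen).

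Of 24 genes known as targets of NF-kappaB, 19 rose and 0 fell, with a median log2 fold change of 3.36. Over all tested genes 18.9% rose and 21.0% fell. Without saline replicate 5 all 24 targets rose, with a median of 6.13, against 21.0% of all genes tested without it. Csf2, the gene of the myeloid growth factor GM-CSF, was at 9.53 to 11.2 CPM in LPS libraries and at 0 to 0.17 CPM in saline libraries. Il6 was at 85.5 to 404 CPM in LPS libraries, against 11.0 CPM in saline replicate 5, and the neutrophil chemokine gene Cxcl2 at 103 to 309.7 CPM, against 9.74 CPM in saline replicate 5. With all libraries Icam1, Vcam1, Sele, Selp and Cxcl10 did not pass, although their groups did not overlap (edgeR adjusted p between 0.0769 and 0.169; named after their values were seen).

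**Figure D5:**
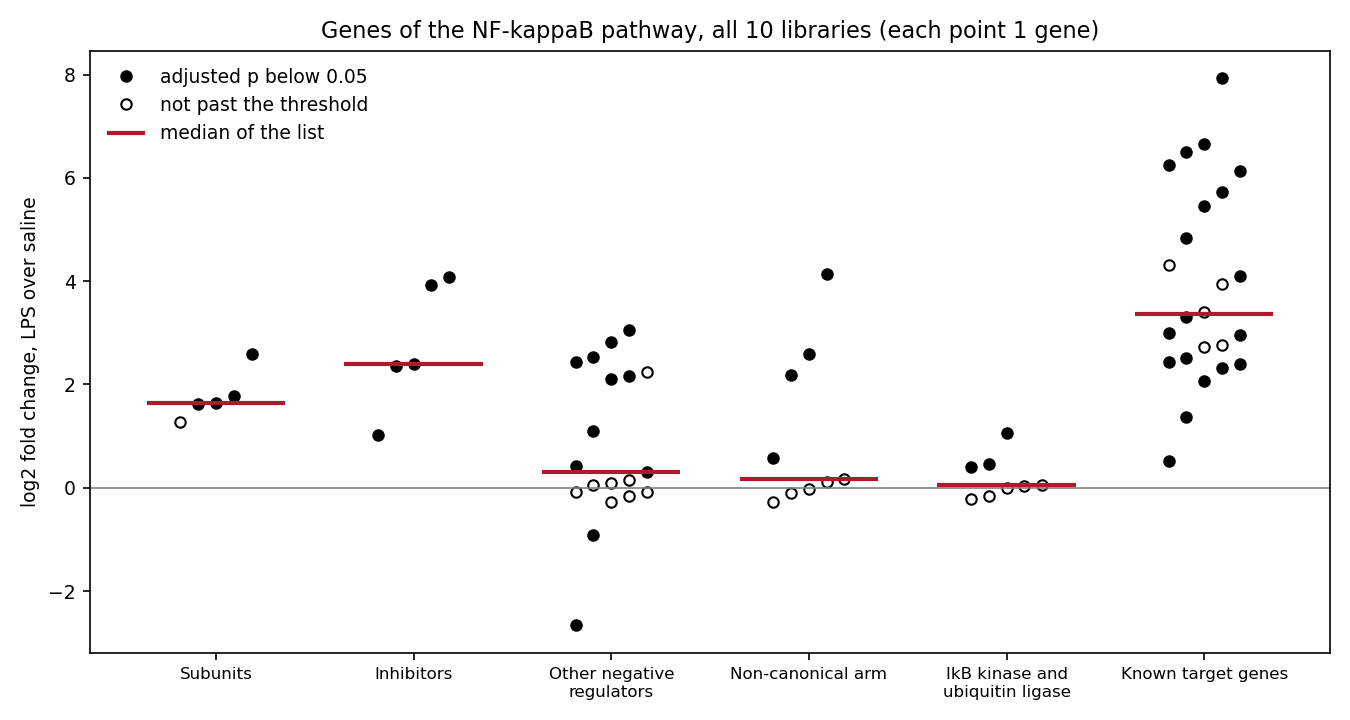
Log2 fold change of LPS over saline (edgeR, all 10 libraries) for each tested gene of the subunits, the inhibitors and 4 pathway lists, with filled circles for adjusted p below 0.05 and the list's median as a line. Subunits and inhibitors all lie above 0, the target genes have a median of 3.36, and the medians of the other 3 lists lie between 0.05 and 0.30.

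The authors' deposited table of Reactome terms holds 13 terms with NF-kappaB in their name, of which 2 had an adjusted p-value below 0.05, against 80 of all 1016 terms. In the authors' deposited table the term on TRAF6-mediated induction of NF-kappaB and MAP kinases counted 33 genes up and 14 down (their adjusted p = 0.000709). Its full name limits it to activation of Toll-like receptors 7/8 or 9. The term on activation of NF-kappaB by TAK1 counted 16 up and 2 down in the authors' deposited table (their adjusted p = 0.0393). Among its genes listed as up, the authors' deposited table held 7 of the 10 members in at least 1 term and 0 as down. Relb, Nfkbie and Nfkbiz were the 3 members in none of the authors' deposited lists, which cover only genes assigned to a term.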

How the data were processed

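RNA of 10 hearts was sequenced after preparation with an Illumina TruSeq kit, per the labels' protocols. The authors deposited raw read counts and FPKM per gene, which sit in 1 table. Bowtie 0.12.2 and the build mm9 appear, with no role, per the submitters' processing notes. Gene coordinates in the table equal those of GENCODE M21 (GRCm38) in 53499 of 54532 identifiers and in 9 of the 10 members (not Nfkb2), so GRCm38 is used here. No source states the counting tool or its strand setting. The authors also deposited a p-value and an adjusted p-value per Reactome term. Smaller FPKM tables name their LPS columns for 3 h, against 24 h in the labels and the count table, and these 10 columns were not used. The files do not settle which time is right.

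Counts were analysed with edgeR 4.0.16 (R 4.3.3): filterByExpr (minimum count 10, minimum total 15; 13864 genes kept, all 10 members among them), TMM scaling, a quasi-likelihood F-test with robust dispersion, and Benjamini-Hochberg adjustment over every gene tested (threshold 0.05). Standard errors were derived from the F statistic. CPM are counts scaled by the library size times the TMM factor. The test was tried on simulated data. No libraries of a group were near-identical. Alternatives were other scalings, filters and dispersion settings, DESeq2 1.42.0, limma 3.58.1 voom, a replicate block, and each library left out. The members and lists were chosen with earlier results of these data known. Named genes are the members and, from each pathway list, the 3 largest changes past the threshold in the more frequent direction and the 1 largest in the other, plus the 2 most abundant markers of each cell type.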

Additional observations from a re-analysis of the deposited data

Results flagged for a closer look

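Saline replicate 5 stood far above the other saline libraries, by Dixon's test of a gap against the group's range (95% critical value 0.71 for 5 libraries), in 9 of the 10 members. The flagged CPM values of this library were 119 for Nfkb1, 71.0 for Nfkb2, 33.9 for Rel, 91.5 for Rela and 47.0 for Relb among the subunits. Among the inhibitors they were 184 for Nfkbia, 27.4 for Nfkbie, 45.3 for Nfkbiz and 123 for Tnfaip3. Nfkbib, at 25.7 CPM, was not flagged, nor were the ratios of inhibitors to subunits in saline hearts. In LPS hearts 0 values were flagged. In all, 26 groups of 5 values were examined and chance flags about 1 in 20, but the 9 flags come from 1 library and do not count as separate events.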

How the results depend on the processing

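Over 19 alternatives the 10 members gave 189 refitted log2 fold changes, of which 0 changed sign, 174 kept their side of the threshold and 11 lost it. All 11 losses were of Nfkbie (every library left out in turn except saline replicate 5, and no filter on low counts, adjusted p = 0.0605) or Tnfaip3 (without saline replicate 2). Relb passed with limma voom (adjusted p = 0.00165), without robust dispersion (0.0231), with the replicate block (0.0342) and without saline replicate 5; DESeq2 gave it no adjusted p. The number of inhibitors called ranged between 3 and 5 over the libraries left out. The median log2 fold change of the inhibitors minus that of the subunits was 0.76, with a range of 0.61 to 1.90 over the libraries left out, 1.54 with limma voom and 1.46 with the replicate block. The inhibitor to subunit ratio, 2.56 times as high in LPS by reads, was 1.85 times as high by FPKM. Rising genes were 2617 of 5533 called with TMM, 1992 of 6399 with upper quartile and 1711 of 7485 with total count scaling, with a median log2 fold change over all genes of -0.18 and -0.30, against -0.02. With upper quartile and total count scaling the falling genes numbered 4 and 6 of the other negative regulators, 2 and 4 of the kinase and ligase list (1 rising with total count) and 1 and 1 of the non-canonical arm, where leaving out libraries gave 0 to 1. These 2 scalings also turned the sign of 4 abundant markers that had not passed with TMM: Myh6 (-0.12 and -0.23), Actc1 (-0.019 and -0.14), Dcn (-0.11 and -0.23) and Mrc1 (-0.019 and -0.13). With total count scaling Myh6 and Dcn passed (adjusted p = 0.036 and 0.0412). Over the libraries left out Myh6 ranged between -0.011 and 0.10. Deviations of same-numbered libraries from their group means correlated at -0.07 to 0.18. So few libraries cannot show whether equal numbers share a litter or day, which the labels do not state. With the replicate block 5418 genes were called, against 5533. The cause of these shifts was not tested. Depth limits Nfkbie, Nfkbiz and Tnfaip3 most, with 36 to 170 reads in saline replicates 1 to 4.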

Other observations

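Transcripts of other IkappaB relatives and of ubiquitin enzymes, outside the 10 genes, are named here after their values were seen. Nfkbid, which encodes IkappaB-NS, was at 3.07 CPM in LPS hearts and 0.69 CPM in saline hearts (log2 fold change 2.16 ± 0.45 SE, edgeR adjusted p = 0.00191), with no overlap between the groups of 5, and its log2 fold change was 3.02 without saline replicate 5. Bcl3, which encodes a nuclear partner of the p50 and p52 pairs, was at 76.0 CPM in LPS hearts and 16.1 CPM in saline hearts with no overlap, but did not pass with all libraries and TMM scaling (2.25 ± 0.78, adjusted p = 0.0503). Bcl3 passed with RLE (adjusted p = 0.0476), upper quartile (0.0481) and total count scaling (0.0451), with the 1 CPM filter (0.0489), with DESeq2 (0.00633), limma voom (0.000205), no robust dispersion (0.015) and the replicate block (0.0326), and without saline replicate 5 (3.70, adjusted p = 1.71e-10). It did not pass with no filter (0.08) or without any other single library (0.0731 to 0.104). Nfkbil1, named for its resemblance to the family, fell to 1.55 CPM in LPS hearts, against 2.93 CPM in saline hearts (-0.91 ± 0.23, adjusted p = 0.00605). Among ubiquitin enzymes that trim the same signal as A20, Cyld (0.10 ± 0.12, adjusted p = 0.563), Otulin (0.04 ± 0.09, adjusted p = 0.743) and Otud7b (-0.16 ± 0.08, adjusted p = 0.156) did not pass.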
